A study of Saturnispora dispora and Saturnispora hagleri and Saturnispora mendoncae with 16 samples.

Results

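*GAL4* encodes the ortholog of Gal4p, a transcription activator of the zinc cluster family, and in the *Saturnispora* species compared here it is held by a single orthogroup, OG0002481. It was chosen by name and not by its level, and is 1 of the 5029 orthogroups in the deposited table of TPM (a share of the reads of a library corrected for gene length). RNA was sequenced from 16 libraries, 4 biological replicates for every one of 4 species, with no mutant among them. *Sat. dispora* (Sdis) and *Sat. hagleri* (Shag) acidify their medium quickly, measured as a rapid extracellular acidification rate (ECAR), whereas the other two, *Sat. mendoncae* (Smen) and *Sat. silvae* (Ssil), are low ECAR species. All 4 species grew on 2% glucose in synthetic complete medium at room temperature, started at an OD600 of 0.05 and shaken at 225 rpm as 50 ml cultures in baffled flasks of 250 ml, and cells were taken in log phase. The low ECAR species were collected at a later hour than the rapid ECAR species, so that hour of collection and ECAR class cannot be told apart.

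In *S. cerevisiae*, Gal4p switches on the genes of the Leloir pathway, which feeds galactose into glycolysis, and it is held inactive by Gal80p when galactose is absent. Gal4p binds as a dimer, and its sites carry a pair of inverted CGG triplets at a fixed distance. In other budding yeasts, *Candida albicans* among them, its ortholog has roles outside galactose use. The study searched promoters of glycolytic genes for the site below, and named *HXK*, *TDH* and *ENO* as genes with an additional predicted site in rapid ECAR species. The site is shown because it is a link between *GAL4* and the glycolytic rows followed here. For *Sat. dispora* the study also reports lower glucose consumption in *GAL4* deletion mutants. A reporter driven by the *TDH* promoter was weaker there without *GAL4* or with mutated sites. The capitals mark the 2 triplets, the n letters stand for any of the 11 bases between them, and the 17 bases read the same on both strands.

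Gal4p consensus: CGGnnnnnnnnnnnCCG

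Each species had 1 gene in the *GAL4* orthogroup. It is g004769 in Sdis, g002022 in Shag, g004769 in Smen and g003896 in Ssil, where every species has its own numbering. The coding lengths that follow from counts and TPM differed, with 946 codons in Sdis, 944 in Shag, 1061 in Smen and 897 in Ssil. Between 2204 and 4887 read pairs were counted in the gene per library, out of 6196684 to 13928456 in all genes. The library with the fewest, Ssil replicate 4, also had the largest share of reads in no annotated feature (16.3%, against 2.5% to 9.2% in the other libraries). No replicate pair agreed within sampling noise, and all 16 libraries were used.

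*GAL4* was transcribed at a moderate level in all 4 species growing on glucose. In Sdis it had 77.6, 73.3, 83.5 and 73.6 TPM in replicates 1 to 4. In Shag it had 83.7, 84.5, 67.1 and 85.7 TPM. Replicate 3 of Shag lay below its other libraries, and it was also the library of that species whose orthogroups as a whole lay lowest, with a median deviation of -0.25 on the log2 scale. In Smen the 4 values were 68.0, 70.0, 67.7 and 67.5 TPM. In Ssil they were 159, 158, 177 and 182 TPM, so that every Ssil library lay above every library of the other species.

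**Figure D1:**
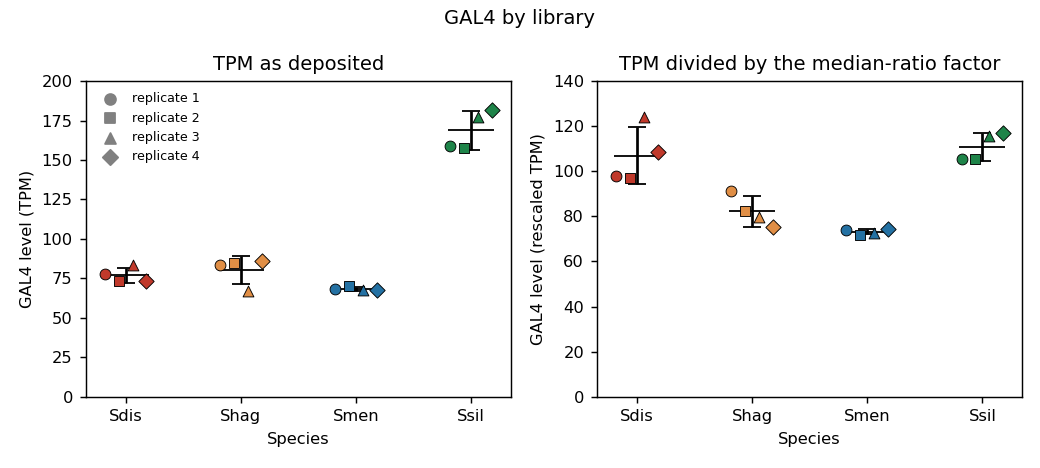
*GAL4* level in each library (points, shape by replicate), with the mean and SD of 4 replicates per species (black bar and whiskers). On the left, TPM as deposited, Ssil stands alone between 158 and 182 TPM. On the right, TPM divided by the median ratio of each library to the others, Sdis (96.8 to 124) and Ssil (105 to 117) overlap.

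The order of the TPM means was Ssil, Shag, Sdis and Smen, and it did not follow ECAR class, since the low ECAR species held both ends. Shag and Sdis, which are neighbours in this order, overlapped and differed by 0.054 on the log2 scale (SE 0.088, adjusted p = 0.585 with limma), where 74.1% of all orthogroups tested were called. Smen and Sdis differed by -0.17 (SE 0.088, adjusted p = 0.0894), where 77.6% were called. Their libraries did not overlap, and the exact two-sided permutation test gave p = 0.0286, the smallest that 4 against 4 allows, or 0.0429 after adjustment over the 6 species pairs. Shag exceeded Smen by 0.22 (SE 0.088, adjusted p = 0.0324), where 69.6% were called, but replicate 3 of Shag lay below every Smen library, so that the groups overlapped, and the exact permutation test gave p = 0.143. Without Shag replicate 3 this difference was 0.31, with an adjusted p of 0.0013, and Smen then differed from Sdis with an adjusted p of 0.0316. The call between Shag and Smen was lost when Shag replicate 1, 2 or 4 or Smen replicate 1, 3 or 4 was left out, with adjusted p from 0.0604 to 0.0852.

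The step to Ssil was larger than the spread between replicates. Ssil exceeded Sdis by 1.12 on the log2 scale (SE 0.088, adjusted p = 2.4e-09), where 89.8% of orthogroups were called. Shag minus Ssil was -1.07, where 83.1% were called. Smen minus Ssil was -1.29 (adjusted p = 5.5e-10), where 84.1% were called. Calls at this rate are the background between these species, and the call of a single row says little about *GAL4* in particular.

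The higher TPM of *GAL4* in Ssil ran with the level of most orthogroups in that species. The median over all 4232 tested orthogroups was itself 1.06 higher in Ssil than in Sdis on the log2 scale of TPM, and *GAL4* stood only 0.061 above that shift. Against the same median, which was 0.42 for Shag minus Sdis and 0.33 for Smen minus Sdis, *GAL4* was lower by 0.36 in Shag and by 0.50 in Smen. TPM sums to a fixed total in each library, so the values of all rows are shares. After each library was divided by its median ratio to the other libraries, *GAL4* had 107 ± 12.7 in Sdis, 82.2 ± 6.81 in Shag, 73.2 ± 1.10 in Smen and 111 ± 6.23 in Ssil (rescaled TPM, mean ± SD, n = 4 replicates). On this scale Ssil and Sdis differed by 0.057 (adjusted p = 0.529 with limma) and overlapped. Shag was then 0.37 below Sdis (adjusted p = 9.8e-04, where 69.4% of orthogroups were called) and Smen 0.53 below it (adjusted p = 2.3e-05, where 79% were called). The differences of Shag and Smen from Ssil narrowed to -0.43 (82.3% called) and -0.59 (83.3% called), and Shag minus Smen to 0.16 (adjusted p = 0.0923, 73.4% called). On this scale the Shag and Smen libraries did not overlap, with an exact permutation p of 0.0286 (0.0343 after adjustment over the 6 pairs). Between the classes *GAL4* differed by 0.052 on this scale and was not called in all 4 pairs, where 13.2% of orthogroups were higher and 14.7% lower in rapid ECAR species. Which species stood apart therefore changed with the scaling, from Ssil alone to the pair of Sdis and Ssil, which are of opposite ECAR class.

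**Figure D2:**
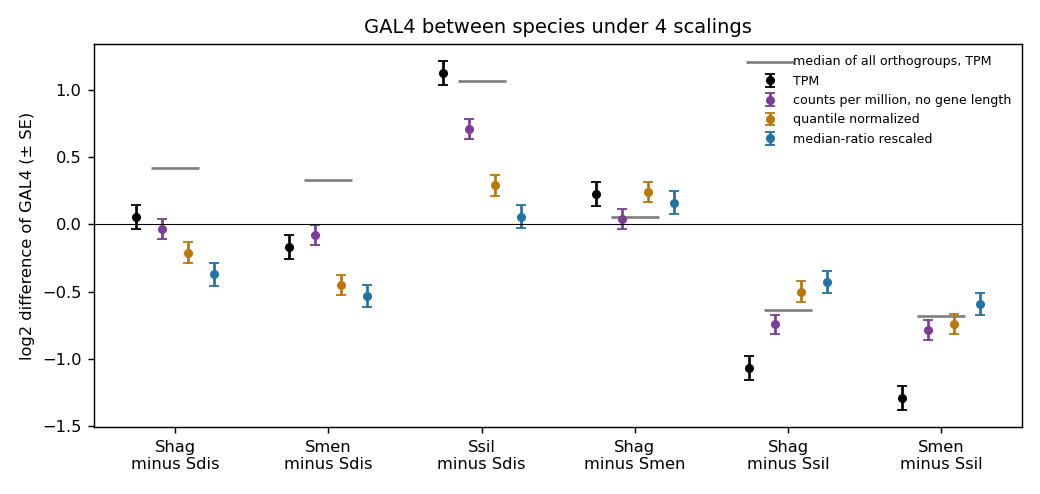
Log2 difference of *GAL4* for the 6 species pairs under 4 scalings (points, with SE), beside the median difference of all tested orthogroups on the TPM scale (gray bars). Ssil minus Sdis runs from 1.12 with TPM to 0.057 after median-ratio rescaling, while the 2 differences from Ssil to Shag and Smen keep their sign under all 4.

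The TPM values also hold a correction for gene length. As CPM, the share of reads without a correction for length, *GAL4* was at 241 ± 11.2 in Sdis, 236 ± 19.2 in Shag, 228 ± 4.47 in Smen and 395 ± 29.3 in Ssil (mean ± SD, n = 4). Sdis, Shag and Smen overlapped pairwise on this scale. The log2 difference between Ssil and Sdis was 0.71 in place of 1.12, while the median of all orthogroups moved from 1.06 to 0.72. That between Shag and Smen was 0.042 (adjusted p = 0.625 with limma) in place of 0.22.

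Between the classes, the mean of Sdis and Shag was 0.45 below that of Smen and Ssil on the TPM scale, and the median orthogroup was 0.46 below. *GAL4* was therefore within 0.013 of the median orthogroup of this contrast. It was not called in all 4 pairs that set a rapid against a low ECAR species, a rule by which 5.65% of orthogroups were higher and 20.8% lower in rapid ECAR species. This does not show equal levels in the classes, since on the TPM scale Ssil lay above and Smen at or below both rapid ECAR species.

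By rank, which no scaling of a library changes, *GAL4* lay in the upper part of the transcriptome but far from its top. In Sdis its rank was 1208 to 1428 of 4812 orthogroups with a value, and in Shag 1425 to 1637 of 4840. In Smen it was 1652 to 1688 of 4615, and in Ssil 1008 to 1158 of 4611. The share of orthogroups below *GAL4* was on average 72.2% in Sdis, 68.0% in Shag, 63.8% in Smen and 76.4% in Ssil. The Smen libraries lay below all others in this share. Ssil and Sdis overlapped, as did Sdis and Shag. Relative to the median TPM of its own library, *GAL4* was 2.38 ± 0.27 times that median in Sdis, 1.81 ± 0.17 in Shag, 1.63 ± 0.032 in Smen and 2.21 ± 0.12 in Ssil (mean ± SD, n = 4). Sdis and Ssil overlapped on this measure (exact permutation test, p = 0.314), and Shag and Smen did as well (p = 0.114).

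**Figure D3:**
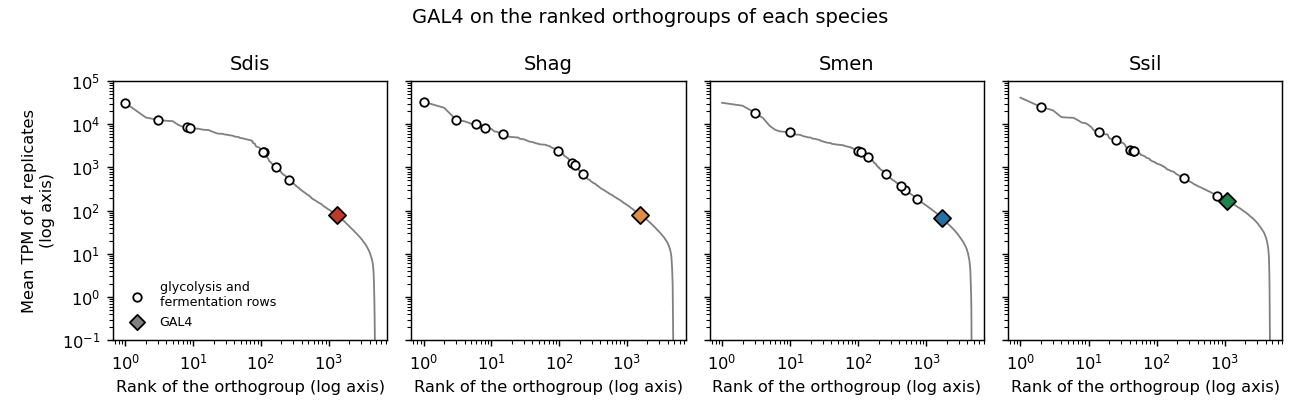
Mean TPM of 4 replicates against rank for all orthogroups of each species (gray line, both axes logarithmic), with *GAL4* as a colored diamond and the named glycolytic and fermentation rows as open circles. In Sdis, Shag and Smen the circles stand well to the left of *GAL4*, while in Ssil 2 of them, *HXT* and *HXK*, come close to it, the latter hidden behind the diamond.

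The spread of *GAL4* between replicate cultures differed between the species. The coefficient of variation (CV) of TPM was 6.15% in Sdis, 11.0% in Shag, 1.67% in Smen and 7.28% in Ssil, where the read counts alone would give 1.94%, 1.99%, 1.93% and 1.62%. The spread in Smen was thus no larger than counting error, and it exceeded counting error in the other 3 species. On the log2 scale the SD was 0.086 in Sdis, 0.17 in Shag, 0.024 in Smen and 0.10 in Ssil, and the median SD over all tested orthogroups was 0.15, 0.29, 0.096 and 0.092 in the same order. In Smen only 1.94% of orthogroups had a smaller SD than *GAL4*. In Sdis this share was 21.8%, in Shag 22.1% and in Ssil 57.6%. In Sdis the place of this SD changed with the scaling, since after median-ratio rescaling the SD rose to 0.16 and 57.4% of orthogroups had a smaller one. Single libraries set much of the spread in 3 species, as the SD was 0.045 without Sdis replicate 3, 0.017 without Shag replicate 3 and 0.0056 without Smen replicate 2.

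The glycolytic rows were then set against *GAL4* within each library, as the ratio of their TPM, which a rescaling of the library leaves as it is. The 9 rows could be named from gene IDs that the study lists for promoter sites, so they are not a neutral sample of glycolysis. By limma on the log2 ratio, 7 of the 8 rows with a value in every species were higher relative to *GAL4* in rapid ECAR species in all 4 pairs, where 8.89% of all orthogroups were higher and 12.7% lower. Between single species the share called was 71% for Shag minus Sdis, 79.1% for Smen minus Sdis, 82.5% for Ssil minus Sdis, 70.8% for Shag minus Smen, 79.2% for Shag minus Ssil and 81.8% for Smen minus Ssil. As TPM without *GAL4*, 6 of these 8 rows met the same rule, where 5.65% of all orthogroups were higher in rapid ECAR species. Each of the 8 rows was compared in the 6 species pairs and *TPI* in 3. In 45 of these 51 comparisons the libraries did not overlap in the ratio, and the exact permutation test gave its smallest p, 0.0286 (0.0324 after adjustment over the 51). The rows without overlap were 4 of 8 for Shag minus Sdis, where 53.5% of all orthogroups did not overlap in their ratio to *GAL4*, 8 of 8 for Smen minus Sdis (79.0%) and 8 of 8 for Ssil minus Sdis (79.4%). For Shag minus Smen they were 9 of 9 (63.8%), for Shag minus Ssil 8 of 9 (72.5%) and for Smen minus Ssil 8 of 9 (85.0%). Lack of overlap was thus common among all orthogroups.

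Uptake and phosphorylation of glucose showed the widest range. For *HXT*, the hexose transporter row, there were 29.1 ± 0.88 TPM per TPM of *GAL4* in Sdis, 30.5 ± 1.82 in Shag, 10.5 ± 0.54 in Smen and 1.28 ± 0.095 in Ssil (mean ± SD, n = 4). The row sums 1 gene in Sdis and Shag and 2 genes in Smen and Ssil. *HXK*, the hexokinase gene, stood at 13.2 ± 0.54, 16.2 ± 0.67, 4.40 ± 0.22 and 1.06 ± 0.18 TPM per TPM of *GAL4* in Sdis, Shag, Smen and Ssil. In Ssil replicates 3 and 4 the ratio was 0.93 and 0.89, so that the regulator's transcript was the more abundant of the pair. The log2 ratio of rapid over low ECAR species was 3.02 for *HXT* (SE 0.059) and 2.76 for *HXK* (SE 0.074). The value of *HXT* depended on gene length, which is summed over its genes, and was 2.01 without length, below the 2.81 of *HXK*. The SE of these and later class ratios measure only the spread between replicate cultures. They leave out the spread between species of a class, as Smen minus Ssil was 3.03 for *HXT* and 2.07 for *HXK* in the log2 ratio.

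In upper glycolysis, *PFK*, the phosphofructokinase row of 2 genes, was at 6.75 ± 0.40 TPM per TPM of *GAL4* in Sdis, 8.60 ± 0.34 in Shag, 2.78 ± 0.059 in Smen and 3.32 ± 0.42 in Ssil. These ratios depended on gene length, since the row sums 2981 codons in Smen, 1937 in Sdis and in Shag, and 1914 in Ssil. Its log2 ratio of rapid over low ECAR species was 1.32, and 1.07 without length. On TPM alone *PFK* did not meet the rule of 4 pairs, because Ssil, at 556 ± 30.7 TPM, lay near Sdis at 519 ± 34.0 TPM. *FBA*, which encodes the aldolase, was at 109 ± 2.48 and 126 ± 7.86 in Sdis and Shag against 25.1 ± 0.96 and 25.7 ± 5.98 in Smen and Ssil. The low ECAR species differed by only -0.016 in the log2 ratio of *FBA* (Smen minus Ssil, SE 0.13, adjusted p = 0.915). The triose phosphate isomerase row, *TPI*, has no value in Sdis, and its ratio was 72.2 ± 7.33 in Shag, 35.8 ± 1.59 in Smen and 15.4 ± 2.42 in Ssil.

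In lower glycolysis all 3 rows, relative to *GAL4*, were highest in the rapid ECAR species, lower in Smen and lowest in Ssil. *TDH*, the glyceraldehyde-3-phosphate dehydrogenase gene, was among the 3 most abundant rows in every library. Per TPM of *GAL4* it had 403 ± 9.49 TPM in Sdis, 410 ± 23.5 in Shag, 273 ± 14.7 in Smen and 150 ± 20.5 in Ssil. Sdis and Shag overlapped and differed by 0.023 in the log2 ratio (SE 0.12, adjusted p = 0.865). For *ENO*, the enolase gene, the ratio was 164 ± 4.89 in Sdis, 158 ± 7.70 in Shag, 95.9 ± 3.94 in Smen and 38.6 ± 8.09 in Ssil. *GPM*, which encodes phosphoglycerate mutase, was at 104 ± 2.57, 101 ± 10.9, 33.5 ± 2.11 and 14.4 ± 2.62 in the same species order. For the mean of the rapid over the low ECAR species the log2 ratio was 2.22 in *GPM* (SE 0.087), 1.01 in *TDH* (SE 0.082) and 1.41 in *ENO* (SE 0.090). The 3 genes named with an additional site, *HXK*, *TDH* and *ENO*, thus held the second, the eighth and the fifth place among the 8 rows in this difference, and without gene length *HXK* came before *HXT*.

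The last row did not meet the rule of 4 pairs. *ADH*, the alcohol dehydrogenase row of 3 genes in each species, had 29.8 ± 1.22 TPM per TPM of *GAL4* in Sdis, 14.4 ± 0.23 in Shag, 5.44 ± 0.30 in Smen and 14.0 ± 2.12 in Ssil. The mean log2 ratio of rapid over low ECAR species was 1.25 (SE 0.070), but Shag and Ssil overlapped and differed by 0.038 in the log2 ratio (SE 0.10, adjusted p = 0.737). It is the only row of fermentation that could be named here.

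**Figure D4:**
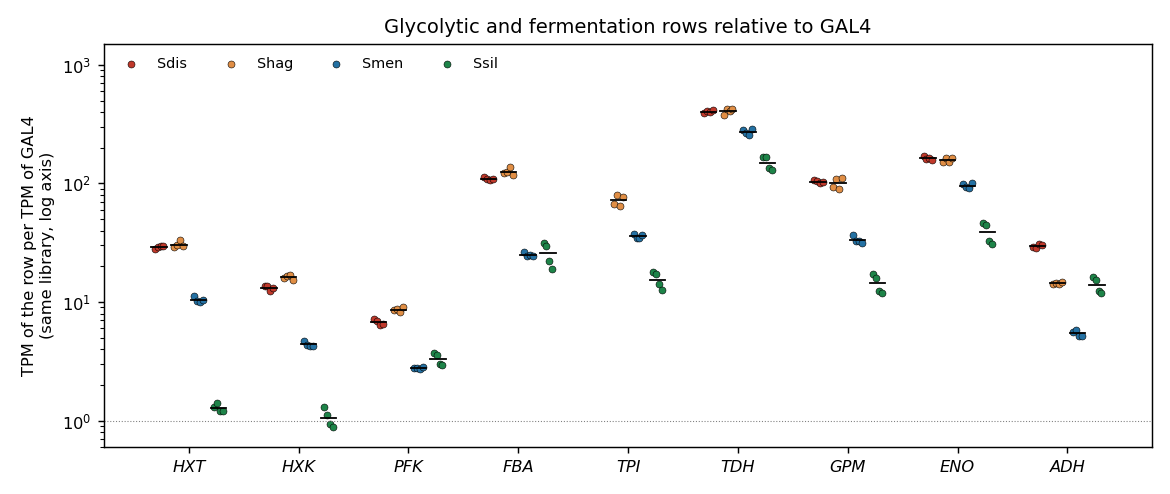
TPM of each row per TPM of *GAL4* in the same library (points, logarithmic axis, bar at the mean of 4 replicates), by species. For *TDH* the ratio goes from about 403 and 410 in Sdis and Shag to 150 in Ssil, and in Ssil the replicates of most rows form a wider column than in Sdis.

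Between the species, *GAL4* ranged 2.47-fold in mean TPM from Smen to Ssil, and the rows ranged from 1.77-fold (*TDH*) to 11.3-fold (*HXT*). In mean TPM no row had the species order of *GAL4*. *PFK*, *FBA*, *TPI*, *TDH* and *GPM* were lowest in Smen, where *GAL4* was also lowest, and *HXT*, *HXK* and *ENO* were lowest in Ssil, where *GAL4* was highest. *ADH* shared the highest and the lowest species with *GAL4*. These orders hold for TPM as deposited. Median-ratio rescaling divides each Ssil library by a larger factor than any other library. On that scale *GAL4* was at 73.2 in Smen and 111 in Ssil, and the orders of the rows were not computed. The lowest place of *TDH*, *TPI* and *GPM* in Smen, and the highest of *ADH* in Ssil, therefore need not hold there.

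Between replicate cultures, *GAL4* and the rows were compared as deviations of log2(TPM + 1) from their species mean, which leaves out differences between species. Over the 16 libraries, Pearson's r was positive for 8 of the 9 rows, and 0 of 9 passed after adjustment over the rows. A positive r was common, as its lower quartile over the 4231 other orthogroups was 0.023. In permutations within species, *HXT* alone had an unadjusted p under 0.05, with r = 0.68 (permutation p = 0.0232, adjusted p = 0.209) and Spearman's rho = 0.67 (permutation p = 0.0169, adjusted p = 0.152). For *TDH* r was 0.47 (rho 0.22, permutation p = 0.24 for r), for *HXK* 0.26 (rho 0.17, p = 0.463), and for *ENO* 0.35 (rho 0.12, p = 0.366). The median r of *GAL4* with all other 4231 orthogroups was 0.38. Of all orthogroups, 90.7% had a lower r than *HXT*, 61.6% a lower one than *TDH*, 46.4% than *ENO* and 37.8% than *HXK*. The deviation of *GAL4* also ran with the median deviation of all orthogroups in the same library (r = 0.62). With median-ratio rescaled TPM, which takes out such a shift, the median r over all orthogroups was 0.068. *HXT* then had r = 0.78 (permutation p = 0.0109, adjusted p = 0.0981), above 99.2% of orthogroups. Its r was 0.54 without Sdis replicate 3 and Shag replicate 1, the libraries farthest in *GAL4* deviation on this scale. *TDH* had r = 0.49 (adjusted p = 0.326), *HXK* 0.39 (adjusted p = 0.326) and *ENO* 0.28 (adjusted p = 0.542), above 85.3%, 76.8% and 66.8% of orthogroups.

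On the TPM scale the sign of r rested on a few libraries. Without the 2 libraries whose *GAL4* deviation was farthest from the median, r stayed above 0 for 1 of the 9 rows, *HXT* (0.12), and the other 8 lay below 0, from -0.22 (*PFK*) to -0.76 (*FBA*). For *TPI*, which has 12 libraries, these were Shag replicate 3 and Ssil replicate 2, and for the other rows Sdis replicate 3 and Shag replicate 3. With libraries left out, r was not computed over all orthogroups, so it is not known whether the fall was particular to these rows. Leaving out Shag replicate 3 alone brought r to -0.14 for *TDH*, -0.36 for *HXK* and -0.34 for *ENO*. With Ssil replicates 1 and 2 left out as well as Shag replicate 3, r was above 0 for every row, from 0.065 (*TPI*) to 0.85 (*ADH*). With Sdis replicate 3, Shag replicate 3 and Ssil replicate 4 left out, it was 0.045 for *HXT*. It was then below 0 for *HXK*, *PFK*, *FBA*, *TDH*, *GPM*, *ENO* and *ADH*, from -0.041 (*PFK*) to -0.57 (*FBA*). The sign thus depended on which libraries were left out, and these sets were picked from several that were run.

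**Figure D5:**
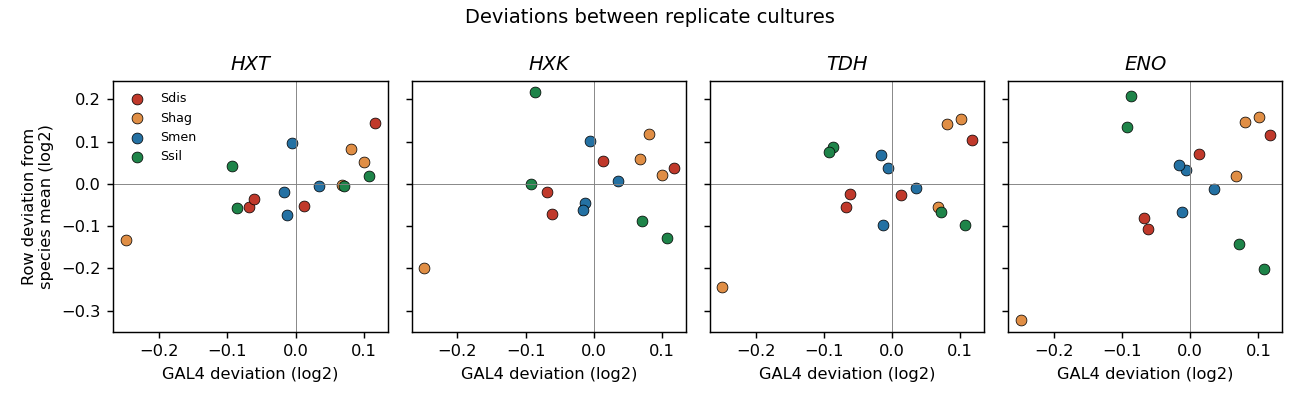
Deviation from the species mean of *HXT*, *HXK*, *TDH* and *ENO* (vertical) against that of *GAL4* (horizontal), both as log2(TPM + 1), for 16 libraries colored by species. Shag replicate 3 is the point at the far left, at -0.25 for *GAL4*, and Ssil (green) falls from upper left to lower right for *HXK*, *TDH* and *ENO*.

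The species differed in how the rows and *GAL4* moved together. In Ssil, *GAL4* was at 159 and 158 TPM in replicates 1 and 2 and at 177 and 182 TPM in replicates 3 and 4. *ENO* was at 7390 and 7027 TPM in replicates 1 and 2 and at 5796 and 5565 TPM in replicates 3 and 4, so that it was lower in the libraries where *GAL4* was higher. *TDH* in the same libraries was at 26576, 26378, 23913 and 23404 TPM, and *FBA* at 5006, 4724, 3940 and 3471 TPM. The ratio to *GAL4* varied more than either of its parts for 9 of the 9 rows in Ssil, with a CV of 7.38% to 23.3%. In Sdis the ratio varied less than both parts for 7 of 8 rows, with a CV of 2.27% to 5.91%. In Shag it did so for 8 of 9 rows. In Smen, where *GAL4* hardly varied, the ratio varied less than both for 0 of 9 rows. *TDH* gives the contrast, since in Sdis its CV was 5.02%, that of *GAL4* 6.15% and that of their ratio 2.35%, whereas in Ssil they were 6.55%, 7.28% and 13.7%. With 4 libraries a species, and with libraries that share depth and composition, this difference between species was not tested. The share of all orthogroups whose ratio to *GAL4* varied less or more than both parts was not computed, so these counts have no background beside them. In Shag replicate 3 the median deviation of all orthogroups was -0.251, close to the -0.249 of *GAL4*. Ssil replicate 4, with the highest *GAL4* value of Ssil, was also its shallowest library, at 6196684 counts, whereas replicate 3 had the most counts of the species, 11817386, and their part in the pattern was not tested.

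Over all 16 libraries, the 2 orthogroups whose log2 TPM ran most like that of *GAL4* were OG0002251 (r = 0.99) and OG0000370 (r = 0.99), neither of which the files pair with a gene name. OG0002251 had 74.4 ± 5.38 TPM in Sdis, 93.4 ± 7.68 in Shag, 65.8 ± 1.28 in Smen and 357 ± 15.9 in Ssil. OG0000370 had 36.1 ± 2.18, 36.8 ± 5.73, 29.9 ± 1.24 and 83.6 ± 3.88 TPM in the same order. The 2 that ran most against it were OG0003921 (r = -0.98) and OG0002494 (r = -0.98). OG0003921 fell to 28.8 ± 2.27 TPM in Ssil from 177 ± 9.21 in Sdis. In all, 582 of 4231 orthogroups (13.8%) had an r above 0.9, and the points fall into Ssil and the other 3 species. After median-ratio rescaling 11 did, and r was 0.95 for OG0000370, 0.78 for OG0002251, -0.48 for OG0003921 and -0.40 for OG0002494.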

How the data were processed

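The members, the glycolytic rows and the tests were chosen with earlier results of these data known. Poly(A) RNA was sequenced as read pairs with a directional kit. The authors trimmed reads with Trimmomatic 0.30, aligned them with HISAT2 2.1.0 to the genome of each species (build not given in the sources used here) and counted them per gene with HTSeq 2.0.3, sharing pairs that fit several genes, so that the deposited values are expected counts and need not be whole. The TPM table was deposited by the authors, who summed counts and lengths over the genes of an orthogroup.

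Genes were tied to orthogroups by equal proportions over the 4 libraries of a species (tolerance 1e-08), and names come from 35 gene IDs in the study's lists, all of which were linked. Genomic positions were not analysed here. Reads in no gene (4.1% to 19.0% per library) were left out.

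The log2(TPM + 1) values were fitted in R 4.3.3 by limma 3.58.1, with species as the factor, all 16 libraries, a variance trend and Benjamini-Hochberg adjustment (threshold 0.05). The 4232 orthogroups fitted had values in all 4 species and averaged 5 TPM or more. Differences on this scale understate changes of low rows. Exact two-sided permutation tests compared 4 with 4 replicates. Deviations were tested with 100000 permutations within species, the smallest possible p being 1e-05. As alternatives, edgeR 4.0.16 and DESeq2 1.42.0 were run on rounded counts, offset by coding length. The gene links, the limma fits and the test of deviations were tried on simulated data, and the other procedures were not. The named genes were *GAL4*, the 9 rows with listed promoter sites, and the 2 orthogroups most and the 2 least like *GAL4*. Alternatives were another pseudocount, filter, scaling, unit, variance model, sample set or test, a replicate block, and leaving out each library. P-values and SE measure only the spread between these replicates, not that between species of an ECAR class.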

Additional observations from a re-analysis of the deposited data

Results flagged for a closer look

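Of 74 groups of 4 replicates examined (TPM of *GAL4* and of the named rows, and their ratios), 4 held a value far from the other 3 by Dixon's criterion, which chance meets in about 1 of 20 groups. In Shag, replicate 3 had 67.1 TPM of *GAL4*, where the gap to the nearest library took 0.894 of the range of the group. In Sdis, replicate 3 had 2469 TPM of *HXT*, above its other libraries. Replicate 1 of Sdis had 27.7 TPM of *HXT* per TPM of *GAL4*, below its other libraries. Replicate 1 of Smen had 4.73 TPM of *HXK* per TPM of *GAL4*, above its other libraries. No cause of these values was tested.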

How the results depend on the processing

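Differences of *GAL4* between species depended on the scaling. Shag minus Sdis (0.054) turned to -0.37 with median-ratio rescaling, -0.37 with the library median as the unit (a setting added after the data were seen), -0.21 with quantile normalization, -0.035 without gene length, -0.35 with edgeR and -0.38 with DESeq2. Smen minus Sdis, not called as TPM, was called at -0.53, -0.52, -0.45, -0.53 and -0.54 with median-ratio rescaling, library median, quantile normalization, edgeR and DESeq2, at -0.17 with only the species compared, and at -0.17 without Shag replicate 3 (range over all libraries left out -0.19 to -0.13). Ssil minus Sdis lost its call at 0.057 with median-ratio rescaling, 0.098 with edgeR and 0.049 with DESeq2, and was -0.067 with the library median. Shag minus Smen lost its call at 0.16, 0.15, 0.042, 0.18 and 0.17 with median-ratio rescaling, library median, no gene length, edgeR and DESeq2, and at 0.22 with only the species compared (range over libraries left out 0.19 to 0.31). With the replicate number as a block it was 0.22 with an adjusted p of 0.0551. The block changed no other call between species. Replicate numbers did not pair the samples, as 8 of 24 same-number correlations exceeded 0.1 (-0.33 to 0.38) and 4 of 16 libraries correlated best with their own number. The difference between classes (-0.45) turned to 0.052, 0.11, 0.041 and 0.058 with median-ratio rescaling, library median, edgeR and DESeq2, and to -0.024 with quantile normalization (adjusted p = 0.679). It was called in all 4 pairs under none of the settings run. Shag minus Ssil and Smen minus Ssil kept sign and call under all of them.

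The count of 7 of 8 rows higher relative to *GAL4* held with the other pseudocounts and filters, without gene length or variance trend, with only the species compared, with the replicate block and without each library. With quantile normalization 5 of 8 met the rule and *ENO* (0.96) and *PFK* (0.95) did not. The share of all orthogroups that met it by their ratio was not computed for that setting. The ratios were not tested with edgeR or DESeq2, and a factor per library cancels in them. By Pearson's r no row's deviations passed adjustment with a pseudocount of 0.1, median-ratio rescaling, quantile normalization or any library left out, the settings run for them. With quantile normalization r turned to -0.18 (*HXT*), -0.35 (*HXK*), -0.058 (*PFK*) and 0.051 (*FBA*), and *TDH*, constant within species there, gave no value. With median-ratio rescaling it turned to 0.23 (*FBA*) and -0.070 (*TPI*). Leaving out single libraries gave ranges of -0.36 to 0.58 (*HXK*), -0.10 to 0.73 (*PFK*), -0.50 to 0.25 (*FBA*), -0.61 to 0.72 (*TPI*), -0.14 to 0.62 (*TDH*), -0.24 to 0.63 (*GPM*) and -0.34 to 0.56 (*ENO*). By Spearman's rho, *HXT* had an adjusted p of 0.0456 without Ssil replicate 2.

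By counts per gene in place of TPM, 88.4% (Sdis), 86.3% (Shag), 84.5% (Smen) and 92.3% (Ssil) of genes lay below *GAL4*, a long gene. In Smen 62.8% of orthogroups lay below it when only those with a value in all 4 species were ranked. The log2 SD in Sdis was 0.16 after rescaling, and without single libraries 0.045 to 0.11 in Sdis, 0.017 to 0.20 in Shag and 0.0056 to 0.029 in Smen. The cause of these changes was not tested. *GAL4* had at least 2204 read pairs in every library, and the part of depth in these changes was not tested.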
